A study of Arabidopsis thaliana with 13 samples.

Results

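The seeds compared here were the single seeds with the most and the fewest reads of *DELAY OF GERMINATION 1* (*DOG1*, AT5G45830) on day 3 of secondary dormancy induction (3d). In each of the 6 libraries of 3d, seeds with under 20000 counts on genes were left out, the others were ranked by the share of their counts on genes that *DOG1* took, and the 8 highest (DOG1-high) and the 8 lowest (DOG1-low) were taken, so that the members were chosen by their measured *DOG1* values. This gave 48 DOG1-high and 48 DOG1-low seeds out of the 187 kept, of 192 sequenced at 3d and 384 sequenced singly in the series. The 91 seeds between the sides served as a further value, and 5 seeds were dropped for depth. *DOG1* itself is given only as the sorting value, and no test was made on it.

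All seeds were wild-type Col-0, stored for 6 months or longer after harvest, and were placed on wet paper at 30 °C in darkness for 3 days. Seeds had been sorted beforehand into small and large ones, and 3 libraries of 32 single seeds were made for each size, so that DOG1-high and DOG1-low seeds shared genotype, treatment, library and size. The same sort was applied to 6 libraries of seeds given 7 days of the treatment and then 24 hours of recovery in light (7d24h). Each seed was crushed whole, its RNA was labelled with a barcoded oligo(dT) primer, and the reads came from the 3′ ends of transcripts. The paper states that the 96 seeds of a condition were split into 3 barcoded sets of 32. The replicates of a size are thus parts of the same set of seeds, and nothing in the labels ties a library to a separate batch of plants. The p-values below therefore measure only how the difference between the sides varied over these libraries.

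DOG1 is a protein of seeds that delays germination, and its transcript level follows the depth of dormancy in *Arabidopsis thaliana*. It acts beside abscisic acid (ABA), the hormone that holds seeds dormant, by restraining clade A protein phosphatases 2C, which switch off ABA signalling. Gibberellin (GA) works the other way and promotes germination, partly through enzymes that loosen cell walls. Secondary dormancy is the dormant state that imbibed, non-dormant seeds take up again when conditions such as heat and darkness prevent germination.

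The sort rested on few reads. The paper states that *DOG1* in imbibed seeds fell under what this single-seed method could detect and was not open to direct assay. The sides are thus ranks by counts, and not classes of expression that the paper reports. DOG1-high seeds held 2 to 32 counts of *DOG1* each and DOG1-low seeds 0 to 16. Summed over the 8 seeds, *DOG1* stood at 55.8, 117 and 176 CPM (counts in 1000000 counts on genes) in the DOG1-high seeds of small replicates 1, 2 and 3, against 2.62, 36.7 and 37.4 CPM in their DOG1-low seeds. In large replicates 1, 2 and 3 it stood at 82.1, 144 and 218 CPM in DOG1-high seeds, against 12.1, 37.0 and 94.1 CPM in DOG1-low seeds. The DOG1-low seeds of large replicate 3 thus had more *DOG1* than the DOG1-high seeds of small replicate 1 and large replicate 1, and the sides are defined only within a library. Just inside and just outside the upper edge, seeds had 32.6 and 25.4, 75.4 and 72.4, and 135 and 103 CPM in small replicates 1 to 3, and 60.8 and 55.4, 127 and 124, and 198 and 194 CPM in large replicates 1 to 3. At the lower edge the highest DOG1-low seed and the next seed above it had 8.55 and 8.62, 47.5 and 47.6, and 63.2 and 65.9 CPM in small replicates 1 to 3, and 22.4 and 30.4, 56.8 and 62.4, and 115 and 118 CPM in large replicates 1 to 3. No *DOG1* count at all was found in 6 seeds of small replicate 1, 2 seeds of large replicate 1 and 1 seed of large replicate 2, all of them DOG1-low. When seeds were instead ranked after thinning to equal depth, the sides overlapped in every library by their full counts. In small replicate 1, DOG1-low seeds then reached 66.2 CPM and DOG1-high seeds went down to 9.15 CPM. Summed over full counts, *DOG1* stood higher on the DOG1-high side of every library. The thinned counts that set these ranks were drawn from the full counts, so the sums are no check on the sort. Strand handling in the counting was not given in the sources used here, so reads of *DOG1* and of its antisense transcript cannot be told apart.

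**Figure D1:**
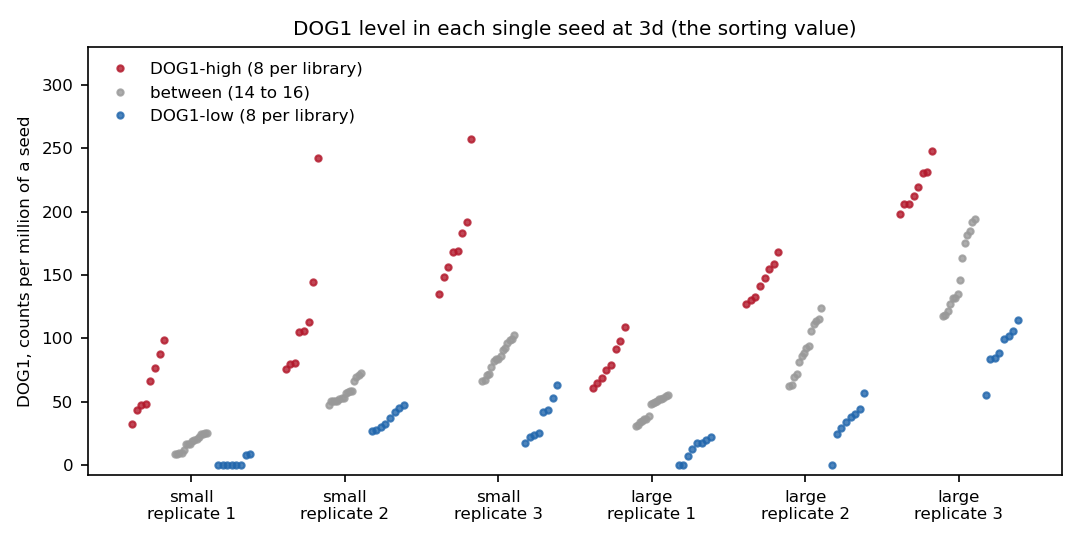
*DOG1* level of each single seed at 3d, in CPM of the counts on genes of that seed, for the 6 libraries; red points are the 8 DOG1-high seeds, grey points the seeds between, and blue points the 8 DOG1-low seeds, each in rising order. At the upper edge the gap to the seeds between is narrow in large replicate 2 (127 and 124 CPM) and wide in small replicate 3 (135 and 103 CPM).

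The share of reads outside genes, the study's measure of library quality, was checked first. It averaged 12.02 ± 0.933% in DOG1-high seeds and 11.7 ± 1.24% in DOG1-low seeds (SD, n = 6 libraries), a difference of 0.306 percentage points. It was 11.6, 11.5 and 11.5% in DOG1-high seeds of small replicates 1 to 3, against 11.2, 9.97 and 11.1% in DOG1-low seeds, and 13.9, 11.95 and 11.6% in DOG1-high seeds of large replicates 1 to 3, against 12.6, 13.4 and 11.99% in DOG1-low seeds. The DOG1-high side was higher in 4 of 6 libraries and the groups overlapped, with p = 0.46875 by an exact two-sided sign-flip permutation test over the 6 libraries, whose smallest possible p is 0.03125, and 0.53125 after Benjamini-Hochberg adjustment over 4 such measures.

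Depth and the number of genes detected also overlapped between the sides. Mean log2 counts on genes per seed differed by -0.09 (16.0 ± 0.227 in DOG1-high and 16.1 ± 0.208 in DOG1-low seeds, SD, n = 6 libraries; exact permutation p = 0.3125, adjusted 0.53125). Thinned to 20000 counts, seeds had 5167 ± 296 genes in DOG1-high and 5125 ± 255 in DOG1-low seeds (SD, n = 6 libraries), with an exact permutation p of 0.53125 before and after adjustment. In large replicate 2 the median depth was 87558 counts in DOG1-high and 47366 in DOG1-low seeds. The 6 libraries list their seeds under the same 32 column numbers, and 19 of 48 DOG1-high, 31 of 48 DOG1-low and 42 of 91 other seeds lay in the first 16. Reads of plastid and mitochondrial genes took 0.903 ± 0.0828% of the counts in DOG1-high and 0.739 ± 0.124% in DOG1-low seeds (SD, n = 6 libraries), higher in 6 of 6 libraries, with an exact permutation p of 0.03125 and 0.125 after adjustment. That measure was added after the gene lists had been seen. The part of these measures in the results below was not tested beyond the fits that carry them as covariates.

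**Figure D2:**
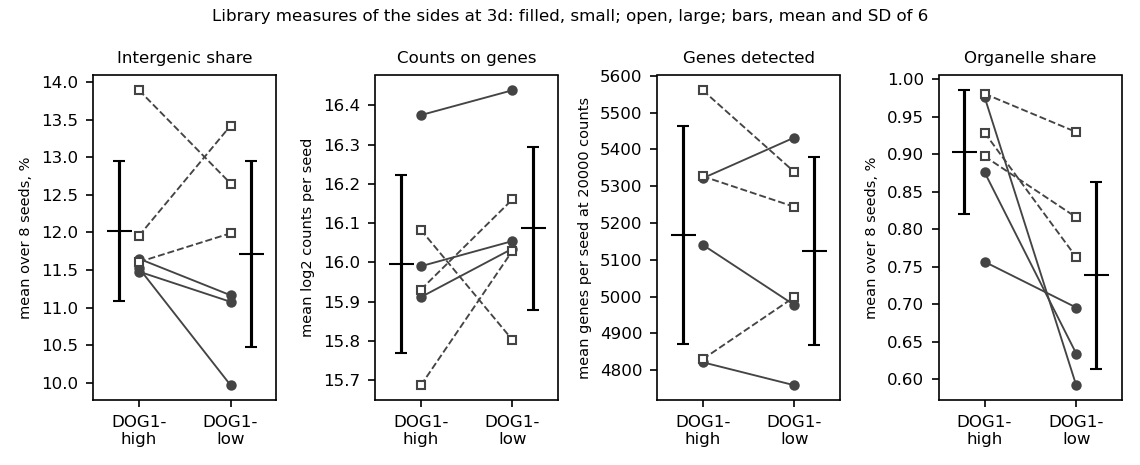
Library measures of the DOG1-high (left) and DOG1-low (right) sides at 3d, as means over 8 seeds, with 1 line per library (filled circles small, open squares large) and bars for the mean and SD of 6. The share of reads outside genes crosses between libraries, whereas the organelle share was higher on the DOG1-high side in all 6; none of the axes starts at 0.

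Few genes differed between the sides. Counts were summed per library and side and tested with edgeR's quasi-likelihood test with the library as a block. Levels of genes in these sums are CPM of the counts on tested genes, scaled by edgeR's TMM factors, unlike the raw CPM of *DOG1* and of single seeds. At a Benjamini-Hochberg FDR of 0.05, 11 of 6998 genes passed (0.157%), 3 higher (0.0429%) and 8 lower (0.114%) in DOG1-high seeds, and 529 (7.56%) had an unadjusted p under 0.05. DESeq2 called 9 genes, of which *BGLU19*, *AT3G21380*, *GSTF2* and *DEG14* were among the 11, and *GSTF3*, *LCR67*, *NSP2*, *ATCG01020* and *AT2G02120* were not. Leaving out large replicate 2 left 0 genes past the threshold by edgeR, and each of the 11 lost its call there. With the share of reads outside genes as a covariate 6 genes passed, 3 of them among the 11, and with the organelle share as a covariate 10 passed. No gene of the 11 had groups that did not overlap. The rule for named genes asked for the same sign in all 6 libraries, which 303 of all 6998 genes tested (4.33%) had. By this rule *AGP7*, *XTH15*, *AT4G15630* and *DEG14* were named. The other 7 are named although they fall outside it, after their values were seen. Since a whole seed was read, fewer cells of a type and less RNA per cell cannot be told apart.

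The 3 genes that were higher in DOG1-high seeds encode an arabinogalactan protein, an enzyme of the cell wall and a small peptide. *AGP7* (AT5G65390, chr5:26128581-26129547 of TAIR10.1, the build of all coordinates here) encodes the arabinogalactan protein, a class of heavily glycosylated proteins of the cell surface. It had 132, 209 and 358 CPM in DOG1-high seeds of small replicates 1 to 3, against 106, 124 and 156 CPM in DOG1-low seeds. In large replicates 1 to 3 it had 102, 161 and 294 CPM in DOG1-high seeds, against 57.2, 120.3 and 213 CPM in DOG1-low seeds. It was higher on the DOG1-high side of every library, but the groups overlapped, at 209 ± 99.0 CPM in DOG1-high and 129 ± 52.0 CPM in DOG1-low seeds (SD, n = 6 libraries). The log2 fold change was 0.67 (SE 0.12, edgeR adjusted p = 0.0252). It passed without any single library except large replicate 2 (adjusted p = 0.0514).

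*XTH15* (AT4G14130, chr4:8137020-8138392) encodes a xyloglucan endotransglucosylase/hydrolase, an enzyme that cuts and rejoins wall xyloglucan. It had 56.3, 73.4 and 478 CPM in DOG1-high seeds of small replicates 1 to 3, against 15.2, 55.4 and 122 CPM in DOG1-low seeds. The DOG1-high seeds of large replicates 1 to 3 had 25.6, 67.6 and 119 CPM, against 19.1, 39.4 and 118 CPM in DOG1-low seeds. The DOG1-high side was higher in all 6 libraries, by little in large replicate 3, and the groups overlapped. The log2 fold change was 1.00 (SE 0.20, edgeR adjusted p = 0.0252), and without small replicate 3 it was 0.53 and did not pass, nor did it without small replicate 1. *GASA1* (AT1G75750, chr1:28441501-28442435), a GA-regulated gene for a small cysteine-rich peptide, had 209, 75.3 and 369 CPM in DOG1-high seeds of small replicates 1 to 3, against 45.5, 49.7 and 30.5 CPM in DOG1-low seeds. Large replicates 1 to 3 gave 156, 49.4 and 71.9 CPM in DOG1-high seeds, against 57.2, 78.8 and 90.4 CPM in DOG1-low seeds. It was thus higher in 4 of 6 libraries and lower in large replicates 2 and 3 (log2 fold change 1.26, SE 0.28, edgeR adjusted p = 0.0484). Without small replicate 3 its value was 0.77 and did not pass, and the call was also lost without small replicate 1 or large replicate 1.

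In single seeds the higher genes were of more than one kind. *AGP7* was read in all but 2 of the 187 seeds, with a median of 182 CPM in DOG1-high seeds, 129 CPM in the seeds between and 118 CPM in DOG1-low seeds. *GASA1* was over 100 CPM in 20 of 48 DOG1-high seeds, 13 of 91 seeds between and 7 of 48 DOG1-low seeds. *XTH15* was over that level in 16 of 48, 21 of 91 and 11 of 48 seeds of the same 3 sets. Both *GASA1* and *XTH15* were over 100 CPM in 11 DOG1-high, 10 other and 2 DOG1-low seeds. Across the 187 seeds, which share libraries and differ in depth, Spearman's rho was 0.452 between *GASA1* and *XTH15* (0.284 to 0.616 within libraries) and 0.587 between *XTH15* and *AGP7* (0.0070 to 0.589 within libraries, so that the pooled value lies at the upper end).

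The 8 lower genes are given in groups, the last of them set by sign across libraries and the others by behaviour in single seeds. The first held *BGLU19*, which encodes a beta-glucosidase, *AT3G21380*, for a jacalin-type mannose-binding lectin, and *GSTF2*, for a glutathione S-transferase of the phi class, an enzyme that couples glutathione to toxic compounds. *BGLU19* (AT3G21370, chr3:7524054-7527677, minus strand) and *AT3G21380* (chr3:7528181-7530686, plus strand) lie head to head, with 503 bases between their starts. The 250 bases before each start are shown because both members of this pair fell, and because the letters of 2 elements known from seed genes, the core ACGTG of ABA-responsive elements and the core CATGCA of RY elements, occur in both windows. The windows are chr3:7527678-7527927 on the minus strand and chr3:7527931-7528180 on the plus strand of TAIR10.1 (RefSeq), and capitals mark these letters on either strand.
BGLU19: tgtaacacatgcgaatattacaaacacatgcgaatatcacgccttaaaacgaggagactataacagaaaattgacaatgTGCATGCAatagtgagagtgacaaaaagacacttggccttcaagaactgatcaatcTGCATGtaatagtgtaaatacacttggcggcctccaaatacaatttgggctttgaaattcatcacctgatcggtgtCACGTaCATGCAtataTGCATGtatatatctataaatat
AT3G21380: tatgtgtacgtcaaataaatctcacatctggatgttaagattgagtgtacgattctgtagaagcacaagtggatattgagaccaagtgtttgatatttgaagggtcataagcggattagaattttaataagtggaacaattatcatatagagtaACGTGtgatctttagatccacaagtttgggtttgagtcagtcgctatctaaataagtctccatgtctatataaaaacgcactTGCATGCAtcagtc
Of the 6949 windows of this length before tested genes, 25.5% held ACGTG and 7.08% held CATGCA. Among the 8 lower genes ACGTG was in the windows of *BGLU19*, *AT3G21380* and *AT4G15630*, and CATGCA in those of *BGLU19*, *AT3G21380* and *PDF1.4*. The windows of the 3 higher genes and of *DOG1* held neither. The palindrome CACGTG, which contains ACGTG, was in 9.48% of windows and in none of the 11, and TATAAA was in 44.6% of windows, 1 of the 3 higher and 5 of the 8 lower genes. A match describes letters in a window and no bound site.

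*BGLU19* had 862, 485 and 487 CPM in DOG1-high seeds of small replicates 1 to 3, against 1157, 878 and 809 CPM in DOG1-low seeds. In large replicates 1 to 3 it had 989.7, 400.4 and 535 CPM in DOG1-high seeds, against 847, 695 and 812 CPM in DOG1-low seeds. It was lower in every library except large replicate 1, where the order was turned (log2 fold change -0.52, SE 0.11, edgeR adjusted p = 0.0252). *AT3G21380* had 449, 255 and 186 CPM in DOG1-high seeds of small replicates 1 to 3, against 556, 403 and 292 CPM in DOG1-low seeds. The DOG1-high seeds of large replicates 1 to 3 had 567.8, 221 and 299 CPM, against 513, 461 and 450.2 CPM in DOG1-low seeds, again with only large replicate 1 turned round. Its log2 fold change was -0.50 (SE 0.11, edgeR adjusted p = 0.0484).

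*GSTF2* (AT4G02520, chr4:1110343-1112033) repeated this order of libraries. It had 837, 556 and 569 CPM in DOG1-high seeds of small replicates 1 to 3, against 1122, 895 and 1002 CPM in DOG1-low seeds. Large replicates 1 to 3 gave 1051, 412 and 558 CPM in DOG1-high seeds, against 906, 658 and 904 CPM in DOG1-low seeds (log2 fold change -0.51, SE 0.11, edgeR adjusted p = 0.0252). The groups of all 3 genes overlapped. Its close paralogue *GSTF3* (AT2G02930) had a log2 fold change of -0.38 (SE 0.10) and did not pass (edgeR adjusted p = 0.107). How reads shared by the 2 genes were counted was not given in the sources used here, so their split is uncertain. Over the 187 seeds Spearman's rho was 0.811 between *BGLU19* and *AT3G21380* (0.627 to 0.915 within libraries), 0.765 between *BGLU19* and *GSTF2* (0.658 to 0.891) and 0.730 between *AT3G21380* and *GSTF2* (0.615 to 0.885). All 3 genes were read in every seed, with *GSTF2* at a median of 560 CPM in DOG1-high seeds, 741 CPM in the seeds between and 817 CPM in DOG1-low seeds. All 3 kept their calls without large replicate 1 and lost them without small replicate 1, small replicate 2 or large replicate 3, as without large replicate 2, and *AT3G21380* also lost its call without small replicate 3.

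**Figure D3:**
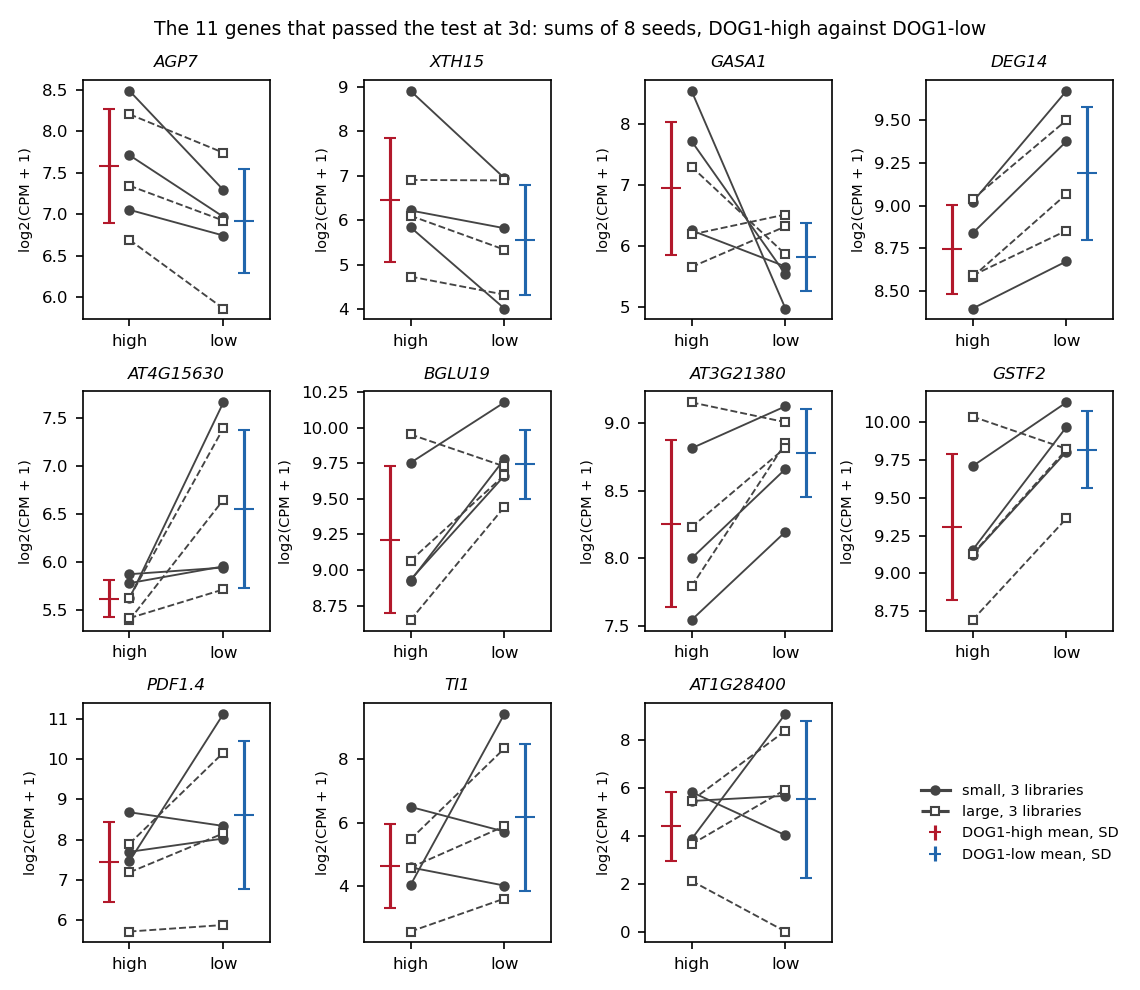
Level of the 11 genes in each summed library at 3d as log2(CPM + 1), DOG1-high on the left and DOG1-low on the right of each panel, with 1 line per library (filled circles small, open squares large) and bars for the mean and SD of 6. *AGP7*, *XTH15*, *DEG14* and *AT4G15630* run one way in all 6 libraries, and *BGLU19*, *AT3G21380* and *GSTF2* run the other way in large replicate 1 alone.

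The second group of lower genes reached its highest levels in few seeds. *PDF1.4* (AT1G19610, chr1:6781483-6782216) encodes a defensin-like protein, *TI1* (AT2G43510, chr2:18066960-18067860) a trypsin inhibitor, and *AT1G28400* (chr1:9972185-9973942) a protein annotated as a GATA zinc finger protein. *PDF1.4* had 409, 207 and 176 CPM in DOG1-high seeds of small replicates 1 to 3, against 323, 260.0 and 2219 CPM in DOG1-low seeds. In large replicates 1 to 3 it had 238, 145 and 51.8 CPM in DOG1-high seeds, against 1140.3, 284 and 58.1 CPM in DOG1-low seeds. The DOG1-low seeds of small replicate 3 and large replicate 1 stood far above the rest, the order was turned in small replicate 1, and the groups overlapped (log2 fold change -1.28, SE 0.28, edgeR adjusted p = 0.0394).

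*TI1* had 88.8, 23.2 and 15.5 CPM in DOG1-high seeds of small replicates 1 to 3, against 51.5, 15.3 and 675 CPM in DOG1-low seeds. The DOG1-high seeds of large replicates 1 to 3 had 43.5, 23.1 and 5.01 CPM, against 318, 58.1 and 11.3 CPM in DOG1-low seeds. It was lower in 4 of 6 libraries (log2 fold change -1.94, SE 0.40, edgeR adjusted p = 0.0252). *AT1G28400* had 42.9, 56.0 and 13.5 CPM in DOG1-high seeds of small replicates 1 to 3, against 50.0, 15.3 and 548 CPM in DOG1-low seeds. Large replicates 1 to 3 gave 43.5, 11.5 and 3.34 CPM in DOG1-high seeds, against 336, 60.2 and 0 CPM in DOG1-low seeds. It was lower in 4 of 6 libraries too, and the groups of both genes overlapped (log2 fold change -2.08, SE 0.41, edgeR adjusted p = 0.0252). The same pair of libraries carried all 3 genes, and without small replicate 3 the values were -0.73 for *PDF1.4*, -0.93 for *TI1* and -1.18 for *AT1G28400*, none of which passed. Without large replicate 1 none of the 3 passed either. When seeds were ranked and summed after thinning to 20000 counts, *PDF1.4* stood at 0.40 and *TI1* at 0.34.

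Single seeds supplied much of these sums. In the DOG1-low seeds of small replicate 3, 1 seed gave 52.9% of the *TI1* counts (222 of 420), and 1 seed gave 49.0% of those of *PDF1.4*. *TI1* was over 100 CPM in 4 of 48 DOG1-high seeds, 17 of 91 seeds between and 10 of 48 DOG1-low seeds. Its median was 0 CPM in DOG1-high seeds, 0 CPM in the seeds between and 18.2 CPM in DOG1-low seeds. Of the 31 seeds over that level 28 were also over it for *AT1G28400*. *PDF1.4* was read more widely, over 100 CPM in 21 of 48 DOG1-high seeds, 41 of 91 seeds between and 30 of 48 DOG1-low seeds. Its medians in these sets were 86.6, 79.1 and 136 CPM. *PDF1.4* was over 1000 CPM in 2 DOG1-high, 13 other and 5 DOG1-low seeds, and all 20 of them were also over 1000 CPM for *LTP2* (AT2G38530), which encodes a lipid transfer protein. *LTP2* averaged 1178 ± 547 CPM in DOG1-high and 4192 ± 4879 CPM in DOG1-low seeds (SD, n = 6 libraries) and did not pass (log2 fold change -1.14, SE 0.27, edgeR adjusted p = 0.0833). Over the 187 seeds Spearman's rho was 0.847 between *PDF1.4* and *LTP2* (0.687 to 0.887 within libraries) and 0.736 between *TI1* and *AT1G28400* (0.644 to 0.853).

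**Figure D4:**
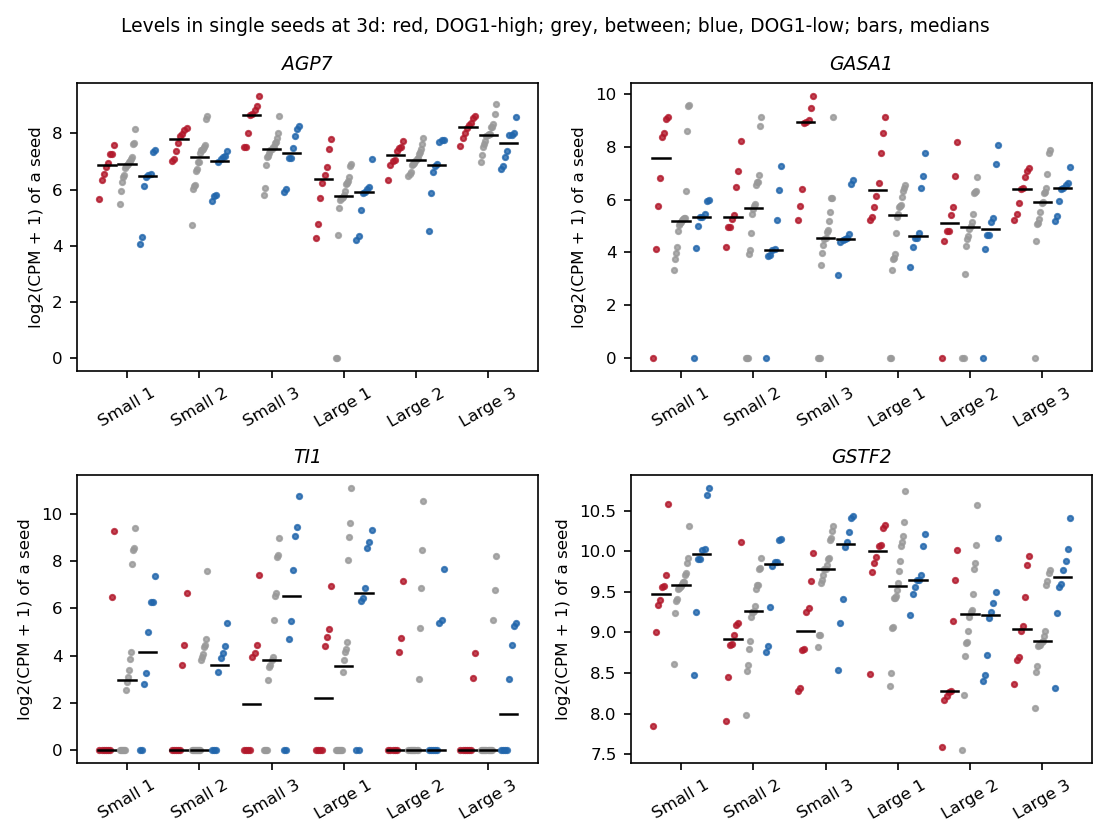
Level of *AGP7*, *GASA1*, *TI1* and *GSTF2* in each single seed at 3d as log2(CPM + 1), by library, with DOG1-high seeds in red, the seeds between in grey and DOG1-low seeds in blue, each in rising order, and a bar at the median of each set. *TI1* lies at 0 in many seeds of every set and over 100 CPM in 4 of 48 DOG1-high and 10 of 48 DOG1-low seeds, whereas *AGP7* has a higher median in DOG1-high than in DOG1-low seeds of all 6 libraries, and *GSTF2* a lower one in all but large replicate 1.

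The last 2 of the lower genes were lower in all 6 libraries. *DEG14* (AT5G27660, chr5:9789468-9792378) encodes a protease of the trypsin family with a PDZ domain. It had 518, 336 and 456 CPM in DOG1-high seeds of small replicates 1 to 3, against 814, 407 and 663 CPM in DOG1-low seeds. In large replicates 1 to 3 it had 524, 382 and 384 CPM in DOG1-high seeds, against 723, 535 and 461 CPM in DOG1-low seeds. The groups overlapped between libraries (log2 fold change -0.45, SE 0.09, edgeR adjusted p = 0.0252), and the call was lost without small replicate 1 or large replicate 2. *AT4G15630* (chr4:8917260-8918875), annotated as an uncharacterized protein of family UPF0497, had 57.7, 54.1 and 48.4 CPM in DOG1-high seeds of small replicates 1 to 3, against 60.6, 61.2 and 202 CPM in DOG1-low seeds. The DOG1-high seeds of large replicates 1 to 3 had 48.6, 41.2 and 41.8 CPM, against 168, 99.6 and 51.6 CPM in DOG1-low seeds. Its level hardly varied on the DOG1-high side (48.6 ± 6.56 CPM, against 107 ± 63.5 CPM in DOG1-low seeds, SD, n = 6 libraries; log2 fold change -1.01, SE 0.20, edgeR adjusted p = 0.0252). Without small replicate 3 its value was -0.75 and did not pass, and it did not pass without large replicate 1 or large replicate 2 either. In single seeds *AT4G15630* varied more with the second group than with *DEG14*. Over the 187 seeds its Spearman's rho was 0.549 with *AT1G28400* (0.175 to 0.786 within libraries) and 0.498 with *TI1* (0.262 to 0.685). It was 0.412 with *PDF1.4* (0.160 to 0.685) and 0.275 with *DEG14* (-0.291 to 0.488).

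The genes of smallest p that did not pass gave values in both directions. Higher in all 6 libraries were *PCAP1*, which encodes a cation-binding protein of the plasma membrane (log2 fold change 0.55, SE 0.13, edgeR adjusted p = 0.0737), *EXL5* (0.52, adjusted p = 0.134) and the plastid genes *ATCG01020* (0.42, adjusted p = 0.0758), *ATCG00550* (0.69, adjusted p = 0.0872), *ATCG00160* (0.54, adjusted p = 0.0999) and *ATCG01090* (0.57, adjusted p = 0.134). On the other side, *LCR67*, which encodes a small cysteine-rich protein, took 30804 ± 9394 CPM in DOG1-high and 39836 ± 5163 CPM in DOG1-low seeds (SD, n = 6 libraries; log2 fold change -0.42, edgeR adjusted p = 0.0737) and was lower in 5 of 6 libraries. *NSP2* (-0.49), *AT2G29340* (-0.44), *ARA12* (-1.13) and *AT2G38870* (-0.48) had edgeR adjusted p-values of 0.0737, 0.102, 0.102 and 0.107. *ARA12* had 48.4 CPM in DOG1-high and 644 CPM in DOG1-low seeds of small replicate 3 and 61.4 and 225 CPM in those of large replicate 1, whereas it lay between 68.5 and 87.3 CPM in DOG1-high and between 55.4 and 89.2 CPM in DOG1-low seeds of the other 4 libraries.

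None of the genes of dormancy, ABA or GA that were tested passed by edgeR or DESeq2. The count filter kept all 4 listed genes of the *DOG1* family, 8 of 14 other dormancy regulators and 4 of 13 genes of ABA synthesis and breakdown. It kept 12 of 25 ABA receptors, phosphatases and kinases, 4 of 6 ABA and maturation factors and 9 of 16 GA genes. The rest had too few counts to be tested. Of the 41 tested 3 (7.32%) had an unadjusted p under 0.05, against 7.56% of all genes. Of the *DOG1* family, all 4 members tested had positive log2 fold changes (median 0.29, and -0.0355 when seeds were ranked and summed after thinning), against 3485 of all 6998 genes (49.8%, median -0.00094). *DOGL1* stood at 0.43 (SE 0.15, edgeR adjusted p = 0.393, higher in 5 of 6 libraries), *DOGL2* at 0.32, *DOGL3* at 0.25 and *DOGL4* at 0.23. *DOGL1* had 14.8, 61.8 and 114 CPM in DOG1-high seeds of small replicates 1 to 3, against 12.1, 42.1 and 96.4 CPM in DOG1-low seeds, and 17.9, 127 and 308 CPM in DOG1-high seeds of large replicates 1 to 3, against 28.6, 85.1 and 197 CPM in DOG1-low seeds. The spread between libraries exceeded that between sides. The 4 genes lie close together on chromosome 4 as related copies, and their shared reads could be split in ways not given in the sources used here.

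Other regulators of dormancy lay near 0, with 6 of 8 positive and a median of 0.10. *RDO5*, a phosphatase-like protein needed for dormancy, stood at 0.12, *SOM*, a zinc finger protein that holds back germination in the dark, at -0.02, *MFT*, which acts in ABA and GA signalling of seeds, at 0.08, *HUB1*, a histone ubiquitin ligase, at 0.16, and *TFIIS*, a transcription elongation factor, at 0.33. Of the genes of ABA synthesis and breakdown 2 of 4 were positive (median 0.04). The synthesis gene *ABA1* stood at 0.14 and the breakdown gene *CYP707A2* at 0.23. Of the ABA receptors, phosphatases and kinases 6 of 12 were positive (median 0.01). Among them, the clade A phosphatase *AHG3* stood at 0.37 (SE 0.12, edgeR adjusted p = 0.373, higher in 6 of 6 libraries), the phosphatase *HAI2* at 0.31, the phosphatase *AHG1*, a known partner of DOG1, at -0.10, and the receptor *PYR1* at -0.28.

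The transcription factors of ABA response and seed maturation were all slightly positive, 4 of 4 with a median of 0.16. *ABI3* averaged 384 ± 114 CPM in DOG1-high and 337 ± 95.9 CPM in DOG1-low seeds (SD, n = 6 libraries), with a log2 fold change of 0.19 (SE 0.09, edgeR adjusted p = 0.666). *ABI5* stood at 0.13, and both were higher in 6 of 6 libraries. *ABI4* stood at 0.29 and *FUS3* at 0.11. Of the GA genes 5 of 9 were positive (median 0.01). The synthesis gene *GA20OX3* stood at 0.12, the DELLA repressors *RGA*, *RGL2* and *GAI* at -0.37, -0.07 and 0.01, and the receptor *GID1A* at 0.09.

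Genes of the organelles had mostly positive values. Of 34 plastid genes tested, 31 had positive values with a median of 0.29, and 0 passed by edgeR, although 16 (47.1%) had an unadjusted p under 0.05, against 7.56% of all genes. DESeq2 called *ATCG01020* alone of these. The plastid genes took 0.612 ± 0.0742% of the counts in DOG1-high and 0.494 ± 0.0988% in DOG1-low seeds (SD, n = 6 libraries), higher in 6 of 6 libraries. The 2 of highest level, *ATCG01130* and *ATCG00740*, stood at 0.26 and 0.31. Of 14 mitochondrial genes 10 were positive (median 0.22), and their share of the counts was higher on the DOG1-high side in 3 of 6 libraries, at 0.252 ± 0.0421% in DOG1-high and 0.217 ± 0.0427% in DOG1-low seeds (SD, n = 6 libraries). Nuclear genes of photosynthesis had 10 of 13 positive (median 0.21), and *RBCS1A*, which encodes the small subunit of Rubisco and is named after its value was seen, stood at 0.93 (SE 0.25, edgeR adjusted p = 0.135, higher in 6 of 6 libraries) at 28.0 ± 16.3 CPM in DOG1-high and 14.5 ± 7.28 CPM in DOG1-low seeds (SD, n = 6 libraries).

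Genes of protein synthesis and turnover had mostly negative values. Of 221 ribosomal protein genes 43 were positive, with a median of -0.18, and they took 1.91 ± 0.0549% of the counts in DOG1-high and 2.09 ± 0.256% in DOG1-low seeds (SD, n = 6 libraries), higher in 1 of 6 libraries. None passed by edgeR or DESeq2, and 57 (25.8%) had an unadjusted p under 0.05, against 7.56% of all genes. The widest gap in their share was in small replicate 3 (1.898% in DOG1-high and 2.598% in DOG1-low seeds), without which the median was -0.09. Of 32 proteasome subunit genes 5 were positive (median -0.21, and -0.14 without small replicate 3). The storage protein genes took 19.2 ± 0.746% of the counts in DOG1-high and 18.2 ± 0.9005% in DOG1-low seeds (SD, n = 6 libraries) and had 6 of 9 positive (median 0.10), with *CRA1*, a cruciferin, at 0.11 and *CRC* at 0.10. Genes for oleosins (6 of 10 positive, median 0.02), late embryogenesis abundant proteins (12 of 22, median 0.02), oil mobilization (4 of 9, median -0.02, with *ICL*, the isocitrate lyase of the glyoxylate cycle, at -0.04) and heat shock proteins (17 of 38, median -0.03) lay close to the median of all genes. Of 5 cell wall loosening genes tested *XTH15* alone passed, beside *XTH25* at 0.34 and *XTH11* at -0.02, and 3 of the 5 were positive.

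**Figure D5:**
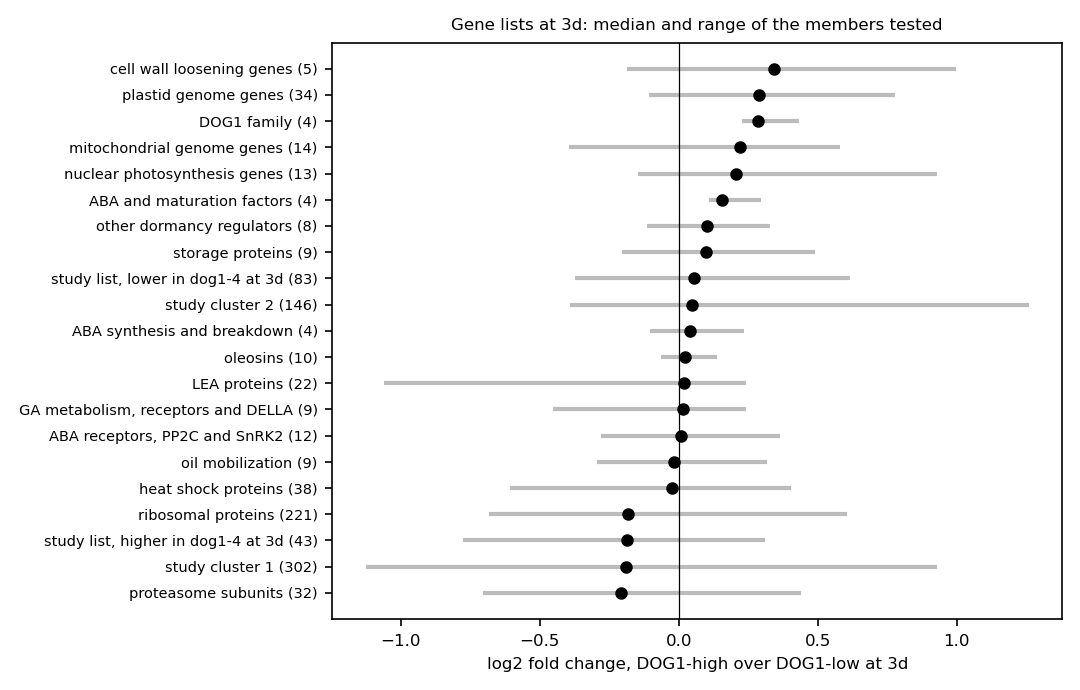
Median (point) and range (line) of the log2 fold change, DOG1-high over DOG1-low at 3d, over the tested members of each gene list, with their number in brackets and a vertical line at 0. Plastid genes and the *DOG1* family have medians of 0.29 (the family -0.0355 when seeds were ranked and summed after thinning), ribosomal protein genes -0.18 and proteasome subunit genes -0.21, and the range of most lists spans 0.

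The study's own lists gave the following values. Of the genes it found higher in *dog1-4*, a *DOG1* knockout, than in Col-0 seeds treated in parallel at 3d, 8 of 43 tested were positive here with a median of -0.19, and of those lower in *dog1-4* 53 of 83 were positive with a median of 0.05. The first list took more of the counts on the DOG1-high side in 3 of 6 libraries, its widest gap was in small replicate 3 (0.393% in DOG1-high and 0.631% in DOG1-low seeds), and without that library its median was -0.02. None of either list passed by edgeR or DESeq2, and 7 (16.3%) and 5 (6.02%) had an unadjusted p under 0.05, against 7.56% of all genes. Clusters 1 and 2 are gene groups that the study chose on these same seeds, so they are not independent evidence of a direction. In cluster 1, 46 of 302 genes tested were positive (median -0.19) and 0 passed by edgeR or DESeq2, with 69 (22.8%) at an unadjusted p under 0.05, and without small replicate 3 the median was -0.10. In cluster 2, 95 of 146 were positive (median 0.05), and *GASA1* passed.

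The endosperm marker *EPR1*, an extensin-like gene, had 354, 178 and 75.4 CPM in DOG1-high seeds of small replicates 1 to 3, against 174, 138 and 134.9 CPM in DOG1-low seeds. For large replicates 1 to 3 it had 141, 72.5 and 58.5 CPM in DOG1-high seeds, against 128, 127 and 119 CPM in DOG1-low seeds. The sums were thus higher on the DOG1-high side in 3 libraries, by most in small replicate 1, and lower in the other 3 (146 ± 112 CPM in DOG1-high and 137 ± 19.5 CPM in DOG1-low seeds, SD, n = 6 libraries; log2 fold change -0.04, edgeR adjusted p = 0.973). In single seeds its median was 74.3 CPM in DOG1-high seeds, 112 CPM in the seeds between and 108 CPM in DOG1-low seeds, and it was over 100 CPM in 18 of 48, 50 of 91 and 28 of 48 of them. Over the 187 seeds its Spearman's rho was 0.569 with *BGLU19* (0.408 to 0.768 within libraries), 0.528 with *GSTF2* (0.329 to 0.750) and 0.523 with *AT3G21380* (0.178 to 0.788). Within libraries, the single-seed median of *EPR1* was higher in DOG1-high than in DOG1-low seeds of small replicate 1 (175 against 156 CPM). It was lower in DOG1-high seeds of the other libraries. *MAN7* had 77 counts over the 12 sums and *EXPA2* had 0. The share of counts of the 3 endosperm markers together was 0.00644 to 0.0326% in DOG1-high and 0.0120 to 0.0163% in DOG1-low seeds, higher on the DOG1-high side in 2 of 6 libraries. The 4 seed coat markers summed to 9 counts. The part of endosperm RNA in the lower level of *BGLU19*, *AT3G21380* and *GSTF2* was not tested.

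The difference between the sides was then compared between small and large seeds. No gene of 6998 passed the edgeR test of the side by size term (0%), 317 had an unadjusted p under 0.05, and DESeq2 called 0. *GASA1* had mean log2 differences of 2.11 in small and 0.15 in large seeds, and the term was 2.11 (edgeR adjusted p = 0.213). For *XTH15* the term was 1.24 (adjusted p = 0.997). With 3 libraries for each size, these values do not show that the sides differ alike in small and large seeds.

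The same sort at 7d24h gave another picture. There 8409 of 12501 genes passed (67.3%), 4251 higher (34%) and 4158 lower (33.3%) in DOG1-high seeds, by edgeR's quasi-likelihood test with Benjamini-Hochberg adjustment. All 48 DOG1-low seeds of 7d24h were without a *DOG1* count. Every one of these libraries held more than 8 such seeds, so that the order given to tied seeds chose among them. The share of reads outside genes was 10.9 ± 1.91% in DOG1-high and 7.98 ± 2.41% in DOG1-low seeds of 7d24h (SD, n = 6 libraries), higher in 6 of 6 libraries, and median depth was 123464 and 163421 counts. With that share as a covariate 4 genes passed. The part of library quality in the 8409 calls cannot be told apart from that of the sort.

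The difference between the sides differed between 3d and 7d24h in 4726 of 12012 genes (39.3%), 8 of the 11 among them, by an edgeR fit added after both times were seen. The 11 had been chosen on the 3d sums, which also entered that fit. Of the 11 genes 10 (all but *GASA1*) were tested at 7d24h, and all 10 passed there, 3 in the direction of 3d. *AGP7* was higher in DOG1-high seeds at 3d and at 7d24h (0.67 and 0.79), *DEG14* was lower at both (-0.45 and -1.37), and so was *AT1G28400* (-2.08 and -1.49). *BGLU19*, *AT3G21380* and *GSTF2*, lower in DOG1-high seeds at 3d, were higher at 7d24h, with log2 fold changes of 1.92, 1.88 and 1.81. *BGLU19* had 520 ± 125 CPM in DOG1-high and 148 ± 71.3 CPM in DOG1-low seeds of 7d24h (SD, n = 6 libraries). *XTH15* was lower there (-4.50), at 5.22 ± 2.58 CPM in DOG1-high and 128 ± 52.2 CPM in DOG1-low seeds (SD, n = 6 libraries). *PDF1.4* (1.11), *TI1* (0.91) and *AT4G15630* (1.49) were higher.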

How the data were processed

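Transcripts were measured by 3′ RNA-seq of single Col-0 seeds, 32 per library, with 3 libraries for each size and time. The authors deposited raw counts of reads per gene and seed, without normalization. STAR 2.7.8a, Seurat, DESeq2 and the build TAIR10 are named in the submitters' processing notes, whereas the handling of strand and of reads with several places was not given in the sources used here. A count table of dry seeds was not used here. Reads outside genes (11.0% of reads at 3d) and ambiguous reads (0.186%) entered neither the library sizes nor the tests. Seeds kept at 3d held 22085 to 245157 counts on genes (median 75860), so that low genes in a single seed rest on few counts.

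Seeds under 20000 counts on genes were left out, and ties in the *DOG1* share were ordered by a digest of the seed's name. Counts of 8 seeds per library and side gave 12 sums at 3d. Genes were kept by edgeR's filterByExpr and tested with its quasi-likelihood functions (glmQLFit, glmQLFTest), TMM scaling and the library as a block (two-sided, Benjamini-Hochberg FDR of 0.05). The block rests on the design, since both sides of a pair come from 1 library. *DOG1* was kept out of the calls. The 7d24h libraries were fitted apart, and the side by time term was a fit of 24 sums added after the separate fits were seen. Levels of genes in the sums are CPM of the counts on tested genes with TMM scaling. Levels of *DOG1* and of single seeds are raw CPM of the counts on genes. Library measures were compared by exact sign-flip permutation tests over 6 libraries (64 sign patterns). Genes were named if they passed, had a mean of at least 20 CPM and had the same sign in all 6 libraries, together with the 6 of smallest p in a direction where fewer than 5 passed, the called members or the 2 of highest level of each list, and any tested gene of the dormancy, ABA and GA lists. The members and the gene lists were chosen with earlier results of these data known. Promoter windows were the 250 bases before the annotated start in RefSeq's TAIR10.1, which matched 37051 of 37336 genes.

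Of the alternatives, 90 were planned and others, named as such, were added after the data were seen. They covered scaling, filters, seeds per side, thinning, covariates and leaving out each library. The 3d fit was tried on simulated counts with the same dispersion for every gene. It recovered 80 of 100 genes given an absolute log2 fold change of 1 and 89 of 100 given 2, with 9 false calls. Genes carried by single seeds were not modelled there. Nor were seeds sorted to the wrong side, since the fold changes were set on the sums. The recovery thus holds only for a sort without error. The tools were edgeR 4.0.16, DESeq2 1.42.0 and limma 3.58.1 under R 4.3.3, and scipy 1.17.1, pandas 2.3.3 and numpy 2.4.6 under Python 3.11.15.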

Additional observations from a re-analysis of the deposited data

Results flagged for a closer look

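The difference between DOG1-high and DOG1-low seeds was tested for a change between 3d and 7d24h with edgeR's quasi-likelihood test, and 4726 of 12012 genes passed (39.3%) at a Benjamini-Hochberg FDR of 0.05. This fit was added after the separate fits were seen. Of the 11 genes of 3d, 8 passed it. The 11 had been chosen by their difference in the 3d sums, which also entered this fit, so this is not independent evidence. The log2 fold change at 3d minus that at 7d24h was -2.26 for *PDF1.4*, -2.77 for *TI1*, -2.35 for *BGLU19*, -2.31 for *AT3G21380*, -2.22 for *GSTF2*, 5.59 for *XTH15*, -2.41 for *AT4G15630* and 1.01 for *DEG14*. For *AGP7*, *AT1G28400* and *GASA1* it was -0.03, -0.55 and 1.04, with edgeR adjusted p-values of 0.931, 0.586 and 0.374. *GASA1* was not among the genes tested in the separate fit of 7d24h. The share of reads outside genes differed between the sides at 7d24h by more than at 3d (10.9% in DOG1-high and 7.98% in DOG1-low seeds there), and its part in these differences was not tested.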

How the results depend on the processing

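The number of genes passed at 3d, 11, varied with the settings. It was 38 with 12 seeds per side and 0 with 5, 74 with no filter on low counts, 2 after thinning to 20000 counts, 2 when seeds were also ranked after thinning, 5 when ranked over all counts, 6 with the share of reads outside genes as a covariate, 6 with log2 counts per seed as a covariate, and 25 with 4 seeds per side from the first 16 and 4 from the last 16 columns; the last 2 were added after seeing the data. Leaving out each library in turn gave 0 (large replicate 2) to 19 (large replicate 1). Without the replicate block, 0 genes passed at 3d and 8127 at 7d24h. For the side by size term the counts were 2 with 12 seeds, 1 with 5 seeds, 1 without genes correlated with the share of reads outside genes, 4 with no filter, 1 with upper-quartile factors, and 0 to 6 without single libraries. At 7d24h, 4 passed with that share as a covariate and 1928 after thinning.

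Among the named genes the direction turned in 2, both when seeds were ranked and summed after thinning: *PDF1.4* to 0.40 and *TI1* to 0.34. The difference in the share of reads outside genes was -0.0578 with 5 seeds and -0.417 with no minimum of counts, that in log2 counts was 0.0082 and 0.0382, and that in genes detected was -18.1 with seeds taken from both sets of columns. The difference in organelle share was 0.116 with 5 seeds and 0.146 with seeds from both sets of columns, and 0.1202 to 0.187 without single libraries, where 5 libraries cannot give an exact p under 0.0625. The median of the *DOG1* family was -0.0355 when seeds were ranked and summed after thinning. Over all alternatives the medians ran from 0.11 to 0.35 for plastid genes and from -0.22 to -0.09 for ribosomal protein genes. The causes of these changes were not tested. Depth limits the sort itself, since a seed's rank rests on 0 to 34 counts of *DOG1*.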
